A study of Mus musculus with 12 samples.

Results

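The genes described here are 10 transcription factors of the activator protein 1 (AP-1) family and its relatives: the FOS proteins Fos, Fosb and Fosl2, the JUN proteins Jun, Junb and Jund, the BATF proteins Batf and Batf3, and Atf3 and Egr1. They were taken by gene symbol from a table of counts for 25078 genes, and all 10 were found. The table held 12 RNA-Seq libraries of donor T cells recovered from the liver on day 6 after allogeneic hematopoietic cell transplantation (HCT). Recipients were lethally irradiated WT BALB/c mice that were also given T cell–depleted WT bone marrow. Donors were on the C57BL/6 background. WT donors carried neither lesion, STAT3ko donors lacked Stat3 in T cells through a floxed allele and CD4-Cre, and STAT3ko PD-1ko donors carried the same deletion and also lacked PD-1. CD4-Cre acts before the CD4 and CD8 lineages part, so both subsets carried the deletion, and no group lacked PD-1 alone. Donor cells were sorted by donor MHC class I and TCRβ into CD4 and CD8 T cells. Each of the 6 groups of genotype and subset had 2 libraries, labelled replicate 1 and replicate 2, and each library came from cells combined from several recipients.

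AP-1 is a dimer of basic leucine zipper proteins. A FOS protein must pair with a JUN protein to bind DNA, whereas JUN proteins can also pair with each other. Fos, Fosb, Jun, Junb, Atf3 and Egr1 are immediate early genes: ERK, JNK and p38 kinases switch on their transcription within minutes of T cell receptor engagement or cell stress, without new protein synthesis, and their mRNAs are short-lived. Their products drive Il2 and other cytokine genes together with NFAT. BATF proteins lack a transactivation domain, pair with JUN proteins and bind with IRF4 at composite sites in effector T cells. EGR1 is a zinc finger protein and not a subunit of AP-1. PD-1 signaling dampens T cell receptor signaling, and STAT3 relays cytokine signals, so the levels of these genes were compared between the genotypes, between CD4 and CD8 T cells and between the replicate libraries.

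The promoters of several of these genes hold short elements that the CREB, ATF and AP-1 proteins can bind. RefSeq windows on GRCm38.p6, from 250 bases before to 50 bases after the annotated start, were available for 9 of the 10 genes. The letters TGACG were searched on both strands. They occurred in 5 of the 9 windows (Fos, Fosb, Junb, Batf and Atf3) and in 20.81% of all 32851 promoter windows of the same length. The 120 bases before the start are shown for 5 genes whose levels moved together between the replicate libraries, written on the strand of the gene. Capitals mark TGACG or its reverse complement, the related letters TGACATCA, or TATAAA.
Fos (chr12:85473770-85473889, plus strand): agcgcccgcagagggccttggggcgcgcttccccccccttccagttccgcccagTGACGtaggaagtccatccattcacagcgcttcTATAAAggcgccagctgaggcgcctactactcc
Fosb (chr7:19310046-19310165, minus strand): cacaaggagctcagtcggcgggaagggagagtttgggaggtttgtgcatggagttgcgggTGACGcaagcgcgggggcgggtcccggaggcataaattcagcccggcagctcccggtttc
Jun (chr4:95052223-95052342, minus strand): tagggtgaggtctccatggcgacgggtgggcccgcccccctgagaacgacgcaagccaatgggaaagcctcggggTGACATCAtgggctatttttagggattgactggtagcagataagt
Junb (chr8:84978749-84978868, minus strand): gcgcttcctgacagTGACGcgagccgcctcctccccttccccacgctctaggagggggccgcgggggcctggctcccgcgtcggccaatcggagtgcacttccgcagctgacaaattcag
Atf3 (chr1:191183334-191183453, minus strand): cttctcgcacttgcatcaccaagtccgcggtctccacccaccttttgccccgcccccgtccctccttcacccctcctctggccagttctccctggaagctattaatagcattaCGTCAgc
TGACATCA was present in 1 of the 9 windows (Jun) and in 3.62% of all windows. The full cyclic AMP response element TGACGTCA and the AP-1 letters TGANTCA were in 0 of the 9, against 1.79% and 7.81% of all windows. TTCNNNGAA, the spaced palindrome that STAT proteins can bind, was in 1 of the 9 (Batf3) and in 8.3% of all. GCGGGGGCG, an EGR1 site, was in 2 of the 9 (Fosb and Fosl2) and in 2.91% of all. TATAAA was in 2 of the 9 (Fos and Junb) and in 13.62%, and the CArG box of serum response elements was in 0 of the 9 and in 1.63%. These are matches of letters within 300-base windows, and elements farther from the start were not searched.

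On mm10, Fos lay at chr12:85473890-85477274 and Batf at chr12:85686720-85709087 on the same strand, 209.4 kb apart with 1 annotated gene between them. Atf3 (chr1:191170297-191183333) and Batf3 (chr1:191098414-191108943) were 61.4 kb apart with 1 gene between them. Of the remaining genes, Fosb lay at chr7:19302696-19310045, Fosl2 at chr5:32136472-32157839, Jun at chr4:95049036-95052222, Junb at chr8:84976909-84978748 and Jund at chr8:70697739-70700616. No gene of the count table overlapped any of the 10. The GENCODE annotation places an antisense RNA on the opposite strand of Jun (Junos) and of Jund (Gm11175). The strand setting of the counting was not given in the sources used here, so reads of these pairs cannot be told apart.

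The libraries held 21676125 to 24551477 counts each. Stat3 averaged 93.2 ± 16.1 RPKM (reads scaled to exon length and to library size; mean ± SD, n = 2) in WT CD4 libraries, 33.6 ± 4.15 in STAT3ko and 42.9 ± 10.0 in STAT3ko PD-1ko. In CD8 libraries the Stat3 levels were 87.5 ± 2.29, 32.0 ± 2.19 and 44.5 ± 13.1 RPKM. Every library of a deleted genotype was below every WT library. The counts cover the whole gene, so exons outside the floxed interval are counted too. Pdcd1, which encodes PD-1, was at 21.7 ± 10.99 RPKM in STAT3ko PD-1ko CD4 libraries against 126 ± 3.41 in WT, and at 42.6 ± 10.7 against 179 ± 26.0 in CD8 libraries. Cd4 was between 1242 and 1887 CPM (counts scaled to library size and to the trimmed mean of M values) in the CD4 libraries and at most 2.73 CPM in the CD8 libraries. Cd8a was between 589 and 1339 CPM in the CD8 libraries and at most 5.64 CPM in the CD4 libraries. The genotype and subset labels therefore matched these 4 genes in every library.

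The 10 genes together took up between 0.0634% (STAT3ko PD-1ko CD8 replicate 2) and 0.284% (WT CD4 replicate 1) of a library's counts. On the per-length scale, over the 12 libraries, Junb was the most abundant with a mean of 244.6 RPKM, followed by Batf with 132 RPKM and Jund with 113 RPKM. Fos followed with 60.02 RPKM, Fosb with 46.5 RPKM, Egr1 with 33.2 RPKM and Jun with 21.1 RPKM. Fosl2 averaged 9.67 RPKM, Atf3 5.25 RPKM and Batf3 0.388 RPKM. The spread over the libraries separated the genes further. Batf, the AP-1 partner of IRF4, differed 1.59-fold in CPM between its highest and lowest library, and its SD of log2 CPM was at percentile 24.5 of all genes tested. Atf3, a stress-induced repressor, differed 199-fold and stood at percentile 99.9. Fosb differed 22.1-fold (percentile 98.4), Fos 15.3-fold and Fosl2 14.6-fold. Between Junb, Batf and Jund the order of levels changed from library to library: the Junb level ranged from 73.4 to 584 RPKM, whereas Batf ranged from 104 to 168 RPKM and Jund from 71.5 to 167 RPKM.

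**Figure D1:**
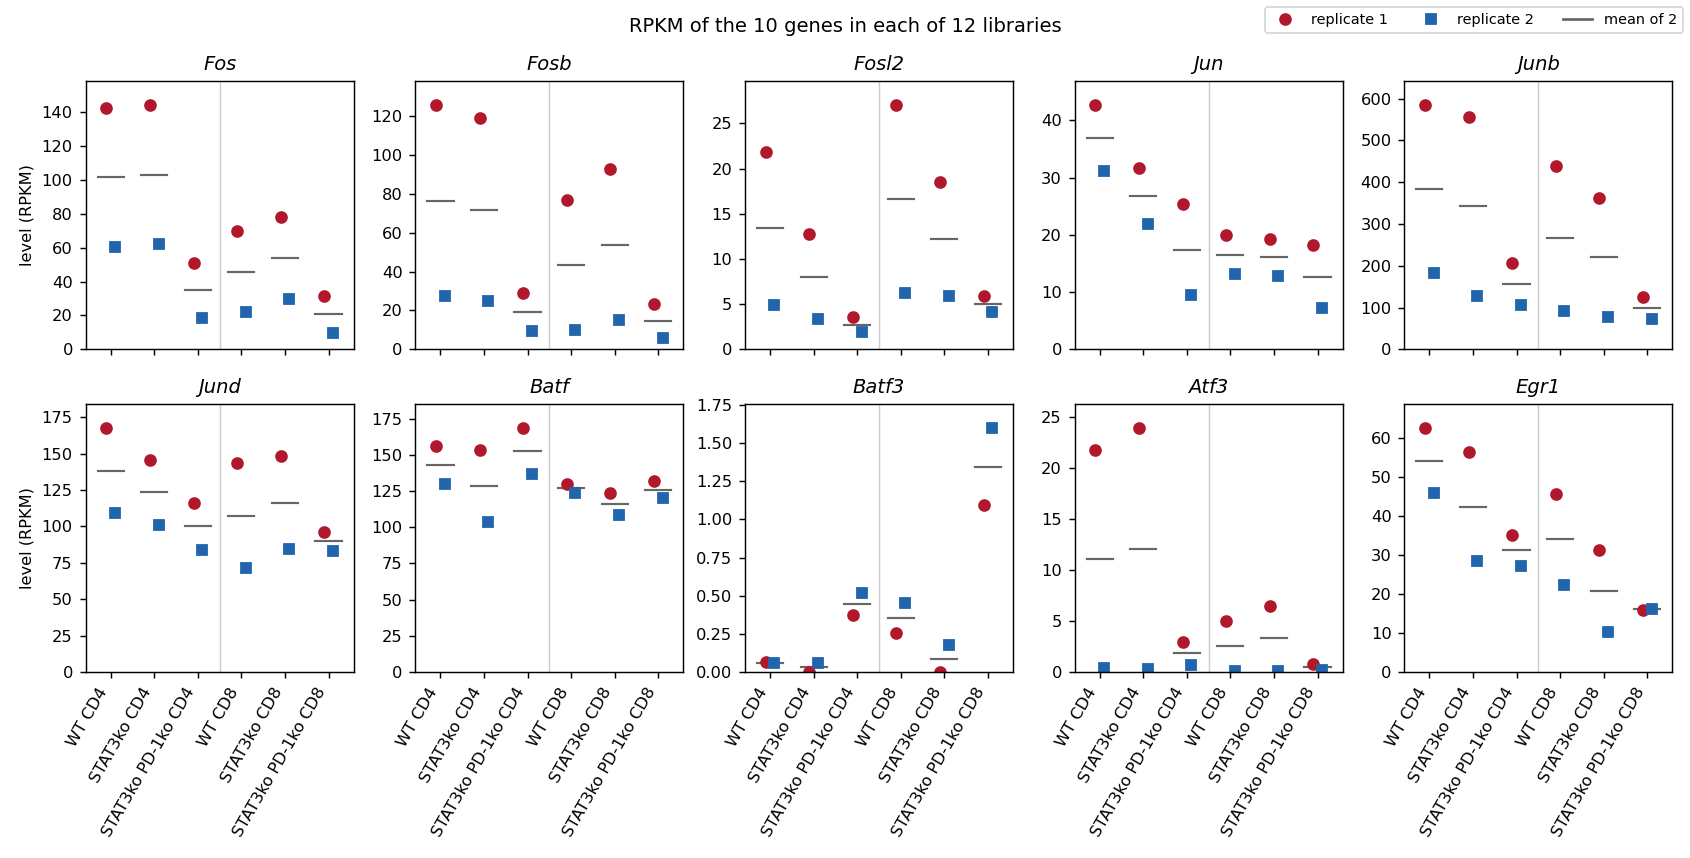
RPKM of each gene (y axis, linear, each panel with its own scale) in the 6 groups (x axis), with red circles for replicate 1, blue squares for replicate 2 and a line at the mean of the 2. Replicate 1 lies above replicate 2 in 6 of 6 groups for 8 of the 10 genes, and the exceptions are Egr1 in STAT3ko PD-1ko CD8 libraries and Batf3.

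The 2 libraries of a group differed in the same direction throughout for most of these genes. Fos was at 299.6 CPM in replicate 1 and 126 CPM in replicate 2 of WT CD4 libraries, at 306 and 130.1 CPM in STAT3ko, and at 105 and 38.4 CPM in STAT3ko PD-1ko. In the CD8 libraries Fos was at 145 and 46.5 CPM in WT, 162 and 61.9 CPM in STAT3ko, and 64.3 and 19.9 CPM in STAT3ko PD-1ko. Replicate 2 was thus the lower library in every group, by a log2 difference between -1.69 and -1.23. Fosb, a FOS protein whose gene responds to the same signals, was at 472 and 103 CPM in WT, 451 and 92.6 CPM in STAT3ko, and 107 and 34.9 CPM in STAT3ko PD-1ko CD4 libraries. Its CD8 libraries held 285 and 37.6 CPM in WT, 343 and 55.25 CPM in STAT3ko, and 85.1 and 21.3 CPM in STAT3ko PD-1ko. Within each subset the replicate 2 libraries of WT and STAT3ko did not exceed the replicate 1 library of STAT3ko PD-1ko for Fosb, so the lower replicate of these genotypes lay below the higher replicate of STAT3ko PD-1ko.

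Junb, the JUN protein with the highest mean level, was at 1071 and 332 CPM in replicates 1 and 2 of WT CD4, at 1031 and 233 CPM in STAT3ko and at 370.1 and 191 CPM in STAT3ko PD-1ko. In CD8 libraries Junb was at 797 and 169 CPM in WT, 655 and 141 CPM in STAT3ko, and 223 and 131 CPM in STAT3ko PD-1ko. The distance between the replicates was smallest in the STAT3ko PD-1ko libraries of both subsets. Atf3 was close to its detection limit in replicate 2. Its counts were 943 in replicate 1 and 18 in replicate 2 of WT CD4, 1012 and 13 in STAT3ko CD4, and 132 and 36 in STAT3ko PD-1ko CD4. For CD8, they were 220 and 6 in WT, 293 and 7 in STAT3ko, and 36 and 10 in STAT3ko PD-1ko. Atf3 therefore exceeded 100 counts only in replicate 1 libraries, and in 5 of those 6.

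Fosl2, a FOS protein that is usually induced later, ranged from 20.6 to 156 CPM in replicate 1 and from 10.6 to 36.2 CPM in replicate 2. Jun was at 135 and 98.1 CPM in replicates 1 and 2 of WT CD4, 102 and 69.4 CPM in STAT3ko CD4, and 78.25 and 29.4 CPM in STAT3ko PD-1ko CD4. The corresponding Jun values in CD8 libraries were 62.5 and 41.7 CPM, 60.6 and 40.2 CPM, and 56.2 and 22.1 CPM. For these genes too replicate 2 was lower in 6 of 6 groups. Jund, a JUN protein present in resting cells, ranged from 266 to 480.4 CPM in replicate 1 and from 204 to 310.4 CPM in replicate 2. Batf ranged from 109.9 to 148 CPM in replicate 1 and from 93.0 to 120 CPM in replicate 2. Both were lower in replicate 2 in 6 of 6 groups, by a median log2 difference of -0.593 for Jund and -0.234 for Batf. Egr1 was lower in replicate 2 in 5 of 6 groups, the exception being STAT3ko PD-1ko CD8, with 47.6 and 48.6 CPM. Batf3 was lower in replicate 2 in 1 of 6 groups.

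Over the 12 libraries, in a model with group and replicate number fitted to all genes (quasi-likelihood test of edgeR, p adjusted by Benjamini and Hochberg over all genes), 9 of the 10 genes were lower in replicate 2. Of the 12334 genes tested, 14.1% passed in either direction and 7.02% were lower. The log2 fold change of Fos was -1.44 (SE 0.0759, adjusted p = 9.28e-06), and 1 gene had a smaller p. Fosb fell by 2.28 (SE 0.145, adjusted p = 1.8e-05) and Atf3 by 4.63 (SE 0.541, adjusted p = 0.000766) on the log2 scale. Only 2 of the 12334 genes had a more negative log2 fold change than Atf3. Junb fell by 1.67 (SE 0.198), Fosl2 by 1.58 (SE 0.201), Jun by 0.82 (SE 0.133), Egr1 by 0.74 (SE 0.171), Jund by 0.61 (SE 0.0925) and Batf by 0.26 (SE 0.0736), with adjusted p between 0.000778 for Junb and 0.0417 for Batf. Batf3 had a log2 fold change of 0.72 (SE 0.388, adjusted p = 0.237). Lower values in replicate 2 in 6 of 6 groups were found for 8 of the 10 genes and for 9.68% of all genes.

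That model counts the CD4 and CD8 libraries of 1 genotype and number as separate, although the study describes both subsets as coming from the same livers. With the CD4 and CD8 counts of each genotype and number summed, which leaves 3 pools for each replicate number, 3 of the 10 genes passed in edgeR, against 0.721% of 12753 genes. They were Fos (log2 fold change -1.38, adjusted p = 0.00708), Fosb (-2.20, adjusted p = 0.00708) and Junb (-1.64, adjusted p = 0.0486). The log2 fold changes of the remaining members were close to those over 12 libraries, for instance -4.59 for Atf3 (adjusted p = 0.0632). In the CD8 libraries alone, Fos and Fosb passed (2 of 10, against 0.35% of genes). In the CD4 libraries alone 6 of the 9 genes tested passed (against 2.39%). The titles of the libraries were numbered in 2 runs, 1 for each replicate number, but no label says whether the number marks an experiment, a sort or a sequencing run.

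The share of variation in log2 CPM over the 12 libraries that went with the replicate number was 73.1% for Atf3, 61.9% for Fosb, 61.4% for Junb and 60.5% for Jund. It was 45.3% for Fosl2, 41.7% for Batf, 40.2% for Fos, 31.9% for Jun and 23.1% for Egr1, and the median over all genes tested was 5.83%. Genotype took the largest share for Batf3 (70%), and the subset took the largest share for Egr1 (38.9%). Batf3 was among the genes tested only because of the group in which it was high, so its share was conditional on that. Genotype and replicate number took nearly equal shares for Fos, with 38.5% and 40.2%. Over all genes tested the median share was 40.8% for genotype and 12.6% for the subset. The genotype share of Fos thus lay below its median, and the replicate share above the 5.83%.

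**Figure D2:**
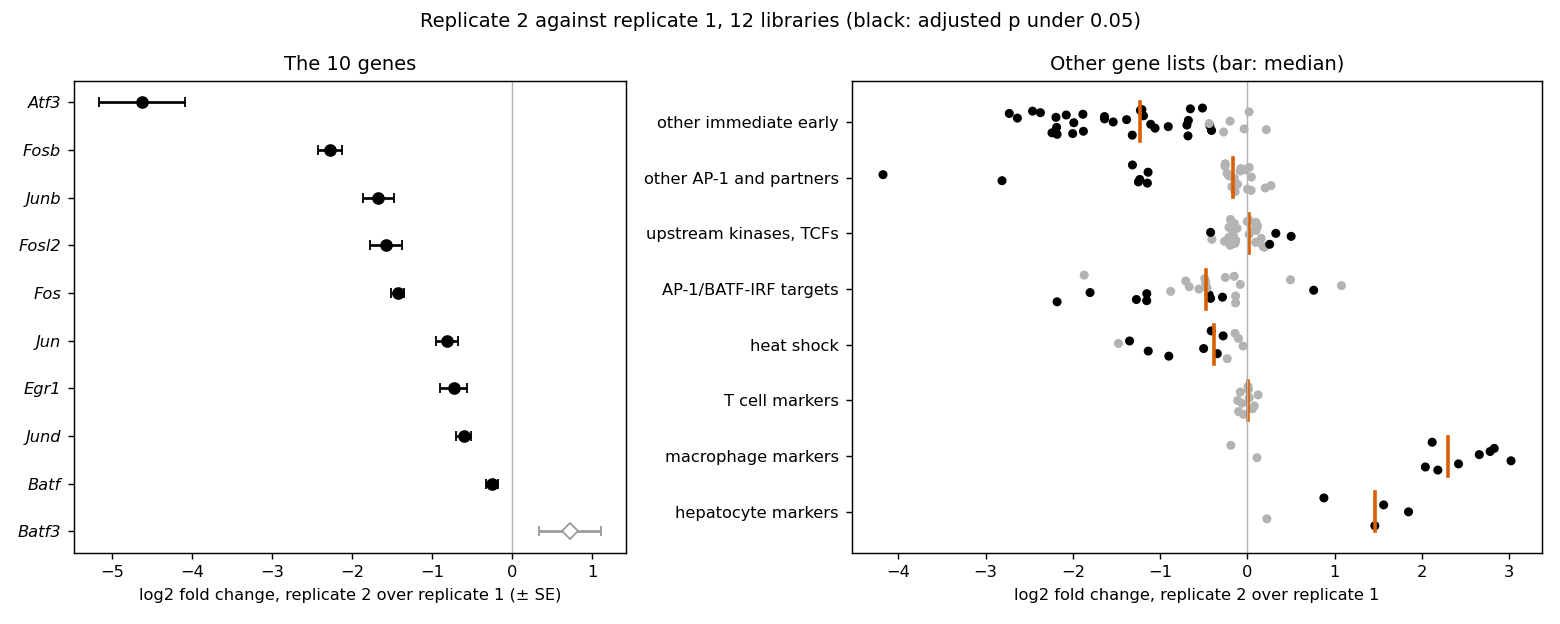
Log2 fold change of replicate 2 over replicate 1 over the 12 libraries (x axes), for the 10 genes with bars of ± 1 SE (left) and for the genes of other lists (right, 1 point a gene, orange bar at the median). Black marks an adjusted p under 0.05, as for 9 of the 10 genes and 31 of 37 other immediate early genes, while no T cell marker is black.

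Other immediate early genes moved with them. Of 37 in the table, 31 were lower in replicate 2 and 0 higher (against 14.1% of all genes in either direction, the share that the other lists here are read against too), with a median log2 fold change of -1.23. Those with the lowest p were Dusp1, a phosphatase of the MAP kinases (-2.24, adjusted p = 6.85e-06), Ppp1r15a, a stress-response phosphatase subunit (-2.08, adjusted p = 1.27e-05), and Rgs2, a regulator of G protein signaling (-2.73, adjusted p = 1.8e-05). With the pools summed, where 0.721% of all genes passed, 15 of the 37 passed as lower, among them Dusp1, Cd69, Nr4a1 and Tnfaip3. Among 24 other AP-1 and partner transcription factors tested, 7 were lower, and the median was -0.165. They included Irf4, the partner of BATF (-1.23, adjusted p = 0.000222), the small Maf protein Maff (-4.18, adjusted p = 0.000379) and Crem (-1.15, adjusted p = 0.000396), of which Irf4 and Crem still passed with the pools summed (2 of 24). Among 29 upstream kinases and ternary complex factors, 3 were higher (Map3k14, Elk4 and Map3k5) and 1 was lower (Map3k8), a share close to the 14.1% of all genes, with a median of 0.0197 (0 of 29 with the pools summed). Of 25 AP-1 and BATF-IRF target genes tested, 8 were lower and 1 higher, led by Cd69 (-2.18, adjusted p = 1.8e-05), Il10 (-1.80, adjusted p = 7.54e-05) and Ifng (-1.15, adjusted p = 0.0013), and these 3 of 25 passed with the pools summed.

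Markers of other cell types and of tissue handling were compared between the replicate numbers as well, where 14.1% of all genes passed (0.721% with the pools summed). Of 12 tested heat shock genes that dissociation of tissue is known to raise, 7 were lower in replicate 2, with a median of -0.381 (0 of 12 with the pools summed). Of 10 tested macrophage and monocyte markers, 8 were higher in replicate 2, with a median of 2.30, among them Lyz2 (2.83, adjusted p = 0.000506) and C1qc (3.02, adjusted p = 0.00476). With the pools summed, Lyz2 was the 1 of the 10 that passed. The summed level of the 12 listed macrophage markers was 7.59 and 14.2 RPKM in replicates 1 and 2 of WT CD4, 6.00 and 10.6 RPKM in STAT3ko CD4, and 8.003 and 9.55 RPKM in STAT3ko PD-1ko CD4. In CD8 libraries it was 24.5 and 30.4 RPKM in WT, 22.6 and 27.7 RPKM in STAT3ko, and 14.7 and 16.02 RPKM in STAT3ko PD-1ko. Cd68 was the most abundant of them in every library, and its own log2 fold change was 0.11 (adjusted p = 0.385). Hepatocyte markers summed to between 0.97 and 3.67 RPKM, 4 of the 5 tested were higher in replicate 2 (0 of 5 with the pools summed), and between 4 and 9 of the 15 listed had no count in a library. Of 3 tested endothelial and stellate cell markers, Cdh5 (1.98, adjusted p = 0.00517) and Stab2 (3.26, adjusted p = 0.0166) were higher (0 of 4 with the pools summed), and the 9 listed summed to between 34.3 and 59.05 RPKM, nearly all of it Pecam1, which T cells also express. Of 5 tested NK cell markers, Klrc1 was lower (-0.47, adjusted p = 0.0303; 0 of 6 with the pools summed). The 6 B and plasma cell markers summed to between 1.39 and 12.1 RPKM with 0 of 1 tested passing, and the 8 neutrophil markers, none of which was tested, to between 0.119 and 2.31 RPKM. Erythroid markers had 5 or 6 of 6 at 0 counts in every library. None of 11 T cell markers passed (median 0.00588). Against these levels the 10 genes summed to 1324 and 591.5 RPKM in the replicates of WT CD4 and to 450.1 and 322 RPKM in those of STAT3ko PD-1ko CD8. The part of the heat shock genes, the other cell types or the replicate number's meaning in the difference was not tested. In bulk libraries, fewer cells that express a gene and less RNA per cell cannot be told apart.

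**Figure D3:**
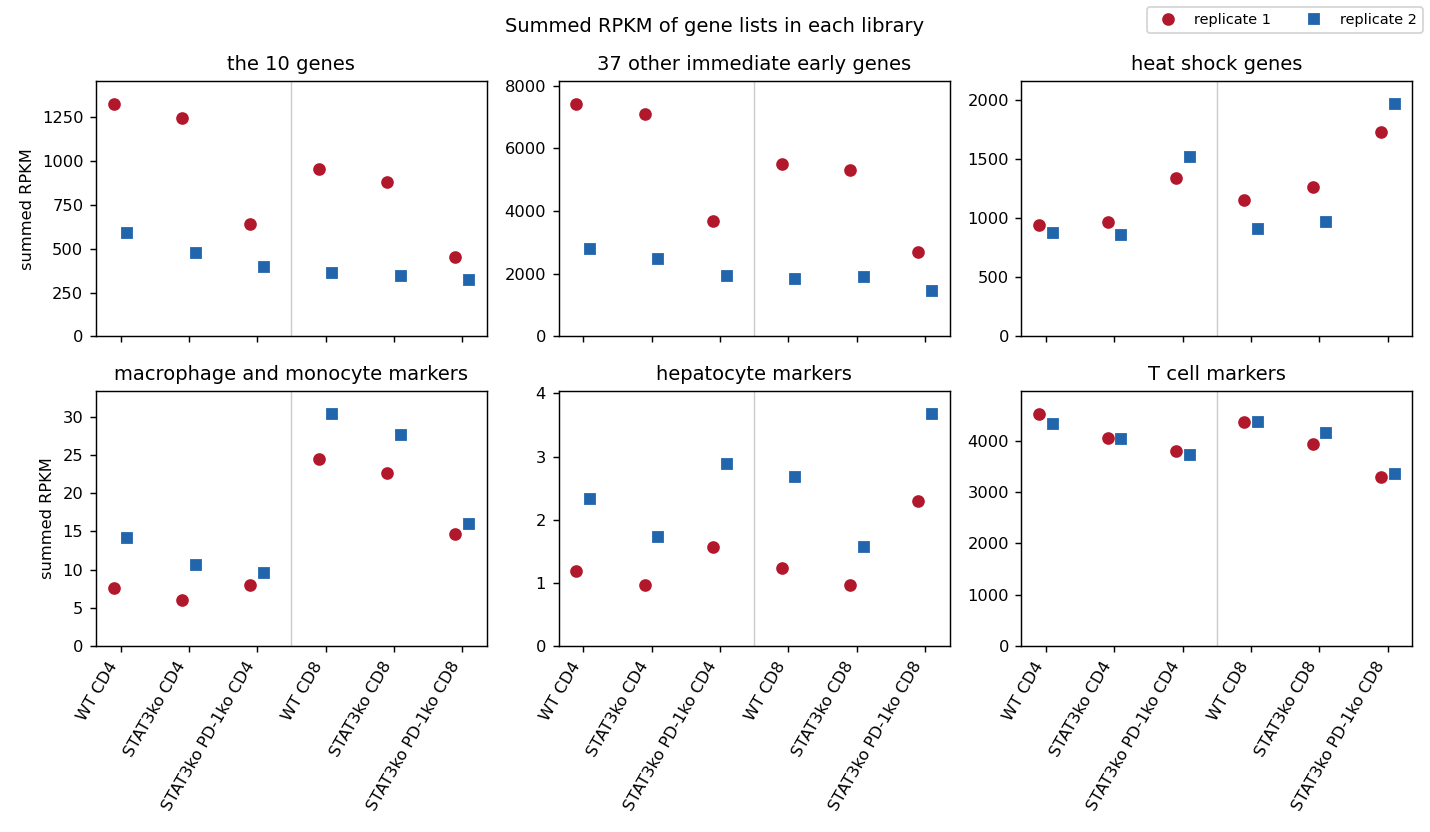
Summed RPKM of 6 gene lists (y axes, linear from 0) in the 12 libraries, by group (x axis) and replicate (red circles 1, blue squares 2). The 10 genes and the 37 other immediate early genes are lower in replicate 2 of every group, macrophage and hepatocyte markers are higher, and T cell markers lie between 3300 and 4516 RPKM.

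STAT3 deletion alone was compared with WT to ask whether donor T cells without STAT3 differed in these genes. None of them passed in CD4 (0 of 9 tested, against 0.334% of genes) or in CD8 libraries (0 of 10, against 0.0583%), and 0 had an unadjusted p under 0.05 in either subset (against 10.5% and 11% of genes). DESeq2 also called 0 in both (against 2.27% and 1.82%). The median log2 fold change was -0.147 in CD4 and -0.0927 in CD8. Fos had a log2 fold change of 0.04 (SE 0.58) in CD4 and 0.23 (SE 0.698) in CD8, and Batf of -0.14 in both (SE 0.22 and 0.118). In CD4 libraries the log2 fold change was -0.07 for Fosb, -0.72 for Fosl2, -0.44 for Jun, -0.15 for Junb and for Jund, 0.15 for Atf3 and -0.34 for Egr1, with adjusted p between 0.812 and 0.992 over the 9 genes. In CD8 libraries it was 0.30 for Fosb, -0.45 for Fosl2, -0.05 for Jun, -0.28 for Junb, 0.11 for Jund, -1.92 for Batf3, 0.37 for Atf3 and -0.72 for Egr1, with adjusted p between 0.551 and 0.985 over the 10. Within a replicate number Fos differed by 0.03 and 0.05 in CD4 libraries and by 0.17 and 0.41 in CD8 libraries. Fosl2, Jun, Junb, Batf and Egr1 were below WT within both numbers of both subsets. For Jun, Junb and Batf these log2 ratios ran from -0.51 to -0.01. For Egr1 the 2 log2 ratios were -0.13 and -0.69 in CD4 and -0.55 and -1.10 in CD8, and for Fosl2 they were -0.76 and -0.53 in CD4 and -0.55 and -0.09 in CD8. The share of all genes that lay below WT in all of these pairs is not given here. With the replicate number as a block, 0 genes passed in either subset as well (against 2.53% and 0.075% of genes). With 2 libraries against 2, the smallest p of a two-sided exact permutation test is 0.333, so no single gene can pass such a test.

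Loss of both STAT3 and PD-1 was then compared with WT. In CD4 libraries the log2 fold change was below 0 for 8 of the 9 genes tested, with a median of -1.30 against -0.0108 over all genes, but 0 of 9 passed, against 12.9% of genes. Unadjusted, 4 had p under 0.05 (against 28.7% of genes), and DESeq2 called 1 (against 18.1%). The change was -1.55 for Fos (SE 0.595, adjusted p = 0.135), -1.995 for Fosb (SE 0.915, adjusted p = 0.202), -2.30 for Fosl2 (SE 0.805, adjusted p = 0.106), -1.10 for Jun (SE 0.42, adjusted p = 0.134) and -1.30 for Junb (SE 0.736, adjusted p = 0.296). For Jund it was -0.48 (adjusted p = 0.294) and for Egr1 -0.81 (adjusted p = 0.147). The 2 libraries of STAT3ko PD-1ko lay below both WT libraries for Fos, Fosl2, Jun and Egr1, as for 29.5% of all genes. Batf, with a log2 fold change of 0.08 (SE 0.22), was the gene above 0. Within a replicate number the direction was the same in both pairs for these 8 genes except Atf3. The log2 ratio to WT was -1.52 in replicate 1 and -1.71 in replicate 2 for Fos, -2.14 and -1.56 for Fosb, -2.63 and -1.41 for Fosl2, and -0.79 and -1.73 for Jun. For Junb it was -1.53 and -0.80, for Jund -0.56 and -0.41, and for Egr1 -0.87 and -0.78. The call changed when the replicate number entered edgeR as a block: 7 of the 9 genes then passed, all lower (Fos, Fosb, Fosl2, Jun, Junb, Jund and Egr1), against 26% of genes, with Fos at -1.59 (adjusted p = 0.000341). Same-numbered CD4 libraries deviated together from their group means (r of 0.63, 0.303 and 0.199 over genes), but no label says what the number marks.

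CD8 libraries gave a median of -1.13 over 10 genes, with 9 below 0, and 0 passed against 17.2% of genes (2 with an unadjusted p under 0.05, against 34%, and 0 by DESeq2, against 22.7%). Batf3, 1 of those 2, was tested only because of the group in which it was high. The change was -1.74 for Fosl2 (SE 0.72, adjusted p = 0.137), -1.59 for Fosb (SE 1.12, adjusted p = 0.364), -1.17 for Fos (SE 0.712, adjusted p = 0.293), -1.44 for Junb (SE 0.832, adjusted p = 0.273) and -1.09 for Egr1 (SE 0.497, adjusted p = 0.172). Fosl2 and Egr1 were below WT without overlap of the libraries, as for 29.8% of genes, and Batf3 was above, as for 30% of genes. Within the replicate numbers Fos was below WT by -1.17 and -1.22, Fosb by -1.74 and -0.82, Fosl2 by -2.21 and -0.63, and Junb by -1.84 and -0.37. Jund had opposite signs in the pairs, -0.61 and 0.19. The change was -0.40 for Jun (adjusted p = 0.545), -0.28 for Jund (adjusted p = 0.62) and -0.03 for Batf (adjusted p = 0.882). With the replicate number as a block, Fos, Fosb and Fosl2 passed as lower (3 of 10, against 24.7% of genes).

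**Figure D4:**
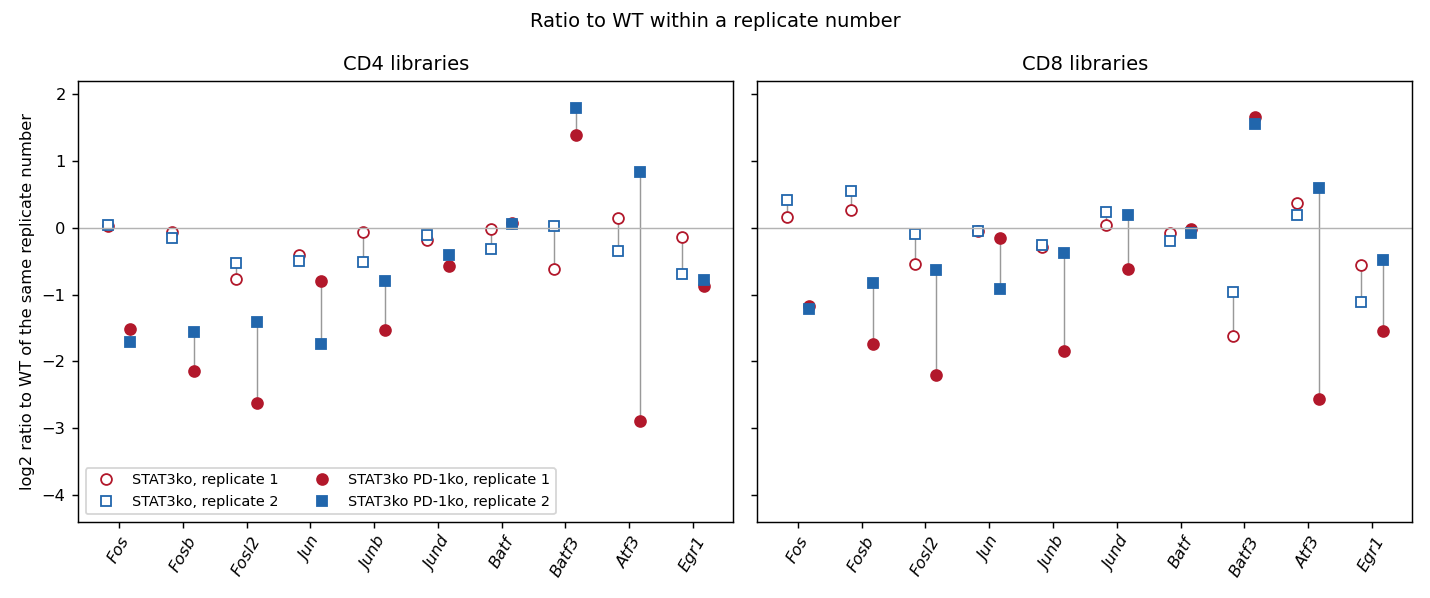
Log2 ratio of CPM (with a prior count of 2) to the WT library of the same subset and replicate number (y axis), for each gene (x axis), in CD4 (left) and CD8 libraries (right). Open symbols are STAT3ko, filled symbols STAT3ko PD-1ko, red circles replicate 1 and blue squares replicate 2, with a line joining the pair. STAT3ko PD-1ko lies below WT in both pairs for Fos, Fosb, Fosl2, Jun, Junb and Egr1 in either subset, and the pairs of Atf3 point in opposite directions.

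Atf3 had opposite signs in the 2 pairs of both subsets. In STAT3ko PD-1ko CD4 libraries its log2 ratio to WT was -2.89 in replicate 1 and 0.84 in replicate 2, and in CD8 libraries -2.56 and 0.60. The replicate 2 values rest on few reads, 36 counts against 18 in CD4 and 10 against 6 in CD8. Over both replicates its log2 fold change was -2.59 (SE 1.87, adjusted p = 0.41) in CD4 and -2.31 (SE 1.76, adjusted p = 0.404) in CD8.

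STAT3ko PD-1ko was also compared with STAT3ko, from which its donors differ by the added loss of PD-1. The paper reports lethal acute graft-versus-host disease with STAT3ko PD-1ko donor T cells and only mild disease with STAT3ko. PD-1 loss and the state of the recipients can therefore not be told apart here. In CD4 libraries the median was -1.15, with 8 of 9 genes below 0. None passed (against 11.1% of genes), 1 had an unadjusted p under 0.05 (against 29.4%), and DESeq2 called 0 (against 17.6%). The change was -1.59 for Fos (SE 0.596, adjusted p = 0.127), whose libraries did not overlap, as for 30.8% of genes, and -1.92 for Fosb (SE 0.913, adjusted p = 0.207). It was -1.58 for Fosl2, -0.66 for Jun, -1.15 for Junb, -0.33 for Jund, 0.22 for Batf, -2.74 for Atf3 and -0.47 for Egr1, with adjusted p between 0.228 for Fosl2 and 0.541 for Batf. Within the replicate numbers the log2 ratio to STAT3ko was -1.55 and -1.76 for Fos, whereas Atf3 had opposite signs, -3.04 and 1.19. In CD8 libraries the median was -0.77. The change was -1.40 for Fos (SE 0.715, adjusted p = 0.209) and -1.29 for Fosl2 (SE 0.713, adjusted p = 0.244). It was -1.89 for Fosb, -0.35 for Jun, -1.16 for Junb, -0.39 for Jund, 0.10 for Batf, -2.68 for Atf3 and -0.37 for Egr1, with adjusted p between 0.274 for Fosb and 0.631 for Egr1. The pairs of CD8 libraries had opposite signs for Atf3 (-2.92 and 0.41) and Egr1 (-0.99 and 0.62). With the replicate number as a block, Fos, Fosb, Fosl2, Jun and Junb passed as lower in CD4 (5 of 9, against 26% of genes), and in CD8 Fos and Fosb passed as lower (against 24.4%). Batf3 passed as higher there too, but it was tested only because of the group in which it was high. This comparison shares the STAT3ko PD-1ko libraries with the one against WT. In the main edgeR fits, of 6 libraries and without a block, Batf3 was the single gene of the 10 that passed in a genotype comparison. Its call there has the same limit (1 of 10, against 16.8% of genes, 8.76% higher).

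Batf3, a BATF protein best known from cross-presenting dendritic cells and also induced in activated T cells, had few reads. Its counts were 4 and 8 in the WT CD8 libraries, 0 and 3 in STAT3ko CD8, and 17 and 27 in STAT3ko PD-1ko CD8. Summed over the replicates, 44 counts against 3 gave a ratio of 15.8, with an exact 95% interval of 5.07 to 79.6 that covers counting error only. Against WT the ratio was 3.91 (44 counts against 12, interval 2.03 to 8.13), and the edgeR change was 1.88 (SE 0.675, adjusted p = 0.0981). Batf3 passed the filter on low counts in CD8 only through the group in which it was high, so a difference between groups was needed for it to be tested at all, and its p-values describe a test that was conditional on that. Against STAT3ko the edgeR log2 fold change was 3.79 (SE 0.845, adjusted p = 0.0269), and with every gene of at least 1 count tested it was 3.77 (adjusted p = 0.00994). Leaving out 1 library in turn moved it between 2.87, without STAT3ko CD8 replicate 1, and 7.47, without STAT3ko CD8 replicate 2, after which STAT3ko holds 0 counts. Without either STAT3ko PD-1ko CD8 library, or without STAT3ko CD8 replicate 1, it did not pass. In CD4 libraries it was not tested, with 1 and 1 counts in WT, 0 and 1 in STAT3ko, and 6 and 9 in STAT3ko PD-1ko. Of 7 dendritic cell markers, 3 were tested in the same comparison. Itgax, which T cells also express, fell by 3.26 (adjusted p = 0.000831), and the log2 fold change was 1.16 for Zbtb46 (adjusted p = 0.352) and -0.18 for Bst2 (adjusted p = 0.392). The 7 summed to 122.7 and 115.5 RPKM in the replicates of WT CD8, 95.15 and 95.57 RPKM in STAT3ko CD8, and 40.6 and 44.01 RPKM in STAT3ko PD-1ko CD8, where Bst2 was the most abundant in place of Itgax. Siglech was at 0 RPKM in every library, and Xcr1, Flt3 and Clec9a reached at most 0.0309, 0.0125 and 0.013 RPKM. The part of dendritic cells in the Batf3 counts was not tested.

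The other genes of the pathway were described in the same comparisons. In STAT3ko PD-1ko CD4 libraries relative to WT, 2 of 24 other AP-1 and partner factors rose and 3 fell, led by Maf, a large Maf factor (-1.80, adjusted p = 0.00395), Jdp2, a repressor that pairs with JUN (1.497, adjusted p = 0.00425), and Irf8 (1.098, adjusted p = 0.0117). In CD8 libraries 1 of 24 rose and 5 fell, led by Maf (-2.30, adjusted p = 0.00226), Jdp2 (0.92, adjusted p = 0.00823) and the NFAT factor Nfatc2 (-0.64, adjusted p = 0.0159). Of 37 other immediate early genes, 2 fell and 0 rose in CD4, where 12.9% of all genes passed: the antiproliferative gene Btg1 (-1.74, adjusted p = 0.0206) and Ier3 (-1.62, adjusted p = 0.0243). In CD8, where 17.2% of all genes passed, 3 fell and 0 rose: Btg1 (-1.98, adjusted p = 0.0149), Ier3 (-1.12, adjusted p = 0.0365) and Egr3 (-0.90, adjusted p = 0.0373). Their list medians were -0.731 and -0.856.

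Among 29 upstream kinases and ternary complex factors, 5 fell and 0 rose in each subset of STAT3ko PD-1ko relative to WT, beside the 12.9% (CD4) and 17.2% (CD8) of all genes that passed in either direction. Rasgrp1, which loads RAS downstream of the T cell receptor, fell by 0.92 in CD4 (adjusted p = 0.00772) and by 1.05 in CD8 (adjusted p = 0.00294). Prkcq, the protein kinase C isoform of the T cell synapse, fell by 0.64 in CD4 (adjusted p = 0.0263) and by 0.68 in CD8 (adjusted p = 0.0108). The third by p was the p38 kinase gene Mapk11 in CD4 (-1.45, adjusted p = 0.00944) and Map3k5 in CD8 (-0.63, adjusted p = 0.0362). Prkcq had the highest mean level of the list (179 RPKM) and Map2k6 the lowest (1.78 RPKM). Of the AP-1 and BATF-IRF target genes, 7 of 23 fell in CD4, led by Il1r1 (-5.23, adjusted p = 0.00134), Mmp9 (-4.78, adjusted p = 0.00435) and Il17a (-5.33, adjusted p = 0.0112), and 6 of 20 fell and 1 rose in CD8, led by Il1r1 (-5.17, adjusted p = 0.00413), the granzyme gene Gzmb (-1.25, adjusted p = 0.00529) and Cd44 (-0.66, adjusted p = 0.0135). Il1r1 also fell in STAT3ko relative to WT (-5.03 in CD4, adjusted p = 0.00671, and -5.66 in CD8, adjusted p = 0.0454), and was the only gene of these 4 lists that passed in that comparison. Over the 12 libraries Il1r1 ranged from 0.01746 to 7.888 RPKM, Mmp9 from 0.09689 to 7.004 RPKM and Il17a from 0 to 2.198 RPKM. Whether any of them, like Batf3, passed the filter on low counts only through the group in which it was high was not tested. If so, its p-values carry the same limit. In the same STAT3ko PD-1ko libraries, 1 of 11 T cell markers passed as lower in CD4 and 6 of 11 in CD8, 2 of 12 heat shock genes passed as higher in CD4 and 4 of 12 in CD8, and Cd8a fell by 1.09 in CD8 (adjusted p = 0.00414). Macrophage and monocyte markers had a median log2 fold change of -2.19 in CD4 (7 of 8 tested below 0, 0 passing) and -2.45 in CD8 (8 of 8 below 0), where Cd68 passed as lower (-0.71, adjusted p = 0.0154). Of 5 tested NK cell markers, Eomes passed as higher in CD4 (1.40, adjusted p = 0.0158), and Klrc1 (-1.55, adjusted p = 0.00715), Klre1 and Klrb1c passed as lower in CD8, where the median was -1.55. Their part in the levels of the 10 genes was not tested.

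Between CD8 and CD4 libraries of 1 genotype, the fitted log2 fold change was below 0 for 8 of the 10 genes and above 0 for Fosl2 and Batf3. For Batf3 in STAT3ko this rests on 3 counts against 1 in replicate 2, with 0 in both subsets of replicate 1. In the model without pairing none passed in WT, STAT3ko or STAT3ko PD-1ko (0 of 10 in each, against 10.5%, 9.62% and 4.14% of genes). Unadjusted, 2, 0 and 1 had p under 0.05 (against 22.1%, 22% and 14.7%), and DESeq2 called 0 in each (against 12.3%, 11.7% and 6.15%). Batf3, tested only because of the group in which it was high, was 1 of the 2 in WT and the 1 in STAT3ko PD-1ko. The median log2 fold changes were -0.611, -0.559 and -0.437. Since both subsets are described as coming from the same livers, the pool of recipients was also entered as a block, and 7 of 10 genes then passed in each genotype (against 24.3%, 24.9% and 14.4% of genes). Fos was lower in CD8 by -1.24 in WT (adjusted p = 0.000168), -0.99 in STAT3ko (adjusted p = 0.000554) and -0.82 in STAT3ko PD-1ko (adjusted p = 0.00277). Jun was lower by -1.17 (adjusted p = 4.4e-05), -0.77 (adjusted p = 0.000435) and -0.45 (adjusted p = 0.01). For Junb the blocked change was -0.70, -0.69 and -0.64 (adjusted p = 0.00466, 0.00527 and 0.0121), for Atf3 -2.09, -1.84 and -1.83 (adjusted p = 0.000112, 0.000243 and 0.00144), and for Egr1 -0.75, -1.16 and -0.94 (adjusted p = 0.0147, 0.00223 and 0.00968).

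These 5 genes passed as lower in all 3 genotypes with the pool as a block, and Fosb passed in WT (-1.07, adjusted p = 0.0028) and STAT3ko (-0.56, adjusted p = 0.0424) and Jund in WT (-0.42, adjusted p = 0.0309). Fosl2 was higher in CD8 in STAT3ko (0.64, adjusted p = 0.00585) and STAT3ko PD-1ko (0.91, adjusted p = 0.00246), and Batf3 in STAT3ko PD-1ko (1.57, adjusted p = 0.0361). Batf3 entered the fit of 12 libraries only through the STAT3ko PD-1ko CD8 libraries, its counts being at most 9 elsewhere, so its call there carries the same limit as above. For Batf the blocked change was -0.17, -0.15 and -0.28 in WT, STAT3ko and STAT3ko PD-1ko (adjusted p = 0.305, 0.386 and 0.15). Within each of the 6 pools the CD8 library was below its CD4 library for Fos, Fosb, Jun, Junb, Jund, Atf3 and Egr1 and above it for Fosl2. For Jund the log2 ratio was near 0 in STAT3ko replicate 1 (-0.014) and in STAT3ko PD-1ko replicate 2 (-0.004). The share of all genes with 1 direction in all 6 pools is not given here. For Fos the log2 ratios of CD8 to CD4 in replicates 1 and 2 were -1.05 and -1.44 in WT, -0.91 and -1.07 in STAT3ko, and -0.70 and -0.95 in STAT3ko PD-1ko. For Fosl2 they were 0.29 and 0.35, 0.50 and 0.79, and 0.71 and 1.12.

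Egr2 and Egr3, the EGR family members beside Egr1, were the 2 of 37 other immediate early genes that were lower in CD8 in each genotype in the model without pairing, where 10.5%, 9.62% and 4.14% of all genes passed in WT, STAT3ko and STAT3ko PD-1ko. Egr3 fell by 1.68 in WT (adjusted p = 0.0105), by 2.23 in STAT3ko (adjusted p = 0.00331) and by 1.70 in STAT3ko PD-1ko (adjusted p = 0.0208), and the log2 fold change of Egr2 was -1.29 (adjusted p = 0.0364), -1.62 (adjusted p = 0.0167) and -1.55 (adjusted p = 0.0339). Maf was lower in CD8 in each genotype as well, with log2 fold changes between -3.56 and -3.07. Rasgrp1 fell by 0.72 in WT (adjusted p = 0.00151), by 0.74 in STAT3ko (adjusted p = 0.00146) and by 0.83 in STAT3ko PD-1ko (adjusted p = 0.00138). Of 25 target genes, 10 were lower in CD8 and 1 higher in WT (against 10.5% of all genes in either direction), led by Il21 (-3.74, adjusted p = 0.000694), with Gzmb the higher one (2.07, adjusted p = 0.00112).

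Whether a genotype difference differed between CD8 and CD4 was asked with interaction terms in the fit of 12 libraries. None of the 10 genes passed for STAT3ko against WT (0% of genes called), STAT3ko PD-1ko against WT (0.00811%) or STAT3ko PD-1ko against STAT3ko (0%). None had an unadjusted p under 0.05 (against 1.85%, 4.43% and 3.59% of genes in the same order), and DESeq2 called 0 (against 0.0405%, 0.608% and 0.17%). For Fos the CD8 change minus the CD4 change in STAT3ko PD-1ko against WT was 0.39 (SE 1.1), and for Junb it was -0.13 (SE 1.32). The values of the other genes there ran from -0.81 for Batf3 to 0.70 for Jun. They ran from -1.11 (Batf3) to 0.40 (Jun) over the 10 genes for STAT3ko against WT, and from -0.11 (Batf) to 0.31 (Jun) for STAT3ko PD-1ko against STAT3ko. With the pool as a block, 1 gene passed, Jun in STAT3ko PD-1ko against WT (0.73, adjusted p = 0.0386, against 0.681% of genes): its log2 fold change against WT was -1.10 in CD4 and -0.40 in CD8 libraries.

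For each of the 10, the 2 genes of the table whose log2 CPM ran most closely with it over the 12 libraries were taken. Among 8605 or 8606 genes whose mean log2 CPM was 3 or more, Fos ran with the costimulatory receptor gene Cd28 and with Btg2 (Pearson r = 0.98 for both), Fosb with Tagap (0.989) and Klf6 (0.984), and Junb with Cebpb (0.99) and Ier2 (0.988). Atf3 ran with Nr4a1 (0.987) and Coq10b (0.984), and Jund with Nsmce3 (0.973) and Cebpb (0.972). Egr1 ran with Ubl3 (0.943) and Zfp36l1 (0.938), Fosl2 with Lrrc57 (0.949) and Frat2 (0.948), and Jun with Tdrd3 (0.942) and Tmem185b (0.941). Batf ran with the JNK1 gene Mapk8 (0.936) and Rilpl2 (0.873), and Batf3 with Mrps5 (0.947) and Bcat2 (0.944). Among the 10 genes themselves, Fos and Fosb had r = 0.952, and Fos and Batf3 had r = -0.846. These values describe 12 points that share the replicate number, the subset and the genotype, and carry no p.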

How the data were processed

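The deposited values were counts per gene and RPKM. Per the methods and labels, the authors aligned single-end reads to mm10 with STAR and counted RefSeq genes with HTSeq-count. The deposited RPKM are normalized to exon length and depth by the authors. The labels and methods name different library kits, and some label protocols describe an unrelated cell line. Groups came from the labels. Counts were tested with edgeR 4.0.16 (TMM, filterByExpr, glmQLFit and glmQLFTest, Benjamini-Hochberg adjusted p under 0.05) in R 4.3.3: 6 libraries of a subset for genotypes, 12 libraries for subsets, interactions and the replicate number. The SE given with edgeR values was the absolute log2 fold change divided by the square root of the F statistic of the test. DESeq2 1.42.0, limma 3.58.1 on log2(RPKM + 1), other filters, blocks and leaving out libraries were alternatives. CD4 and CD8 libraries of 1 genotype and number deviated together from their group means (r between 0.583 and 0.646 over genes), and the study describes the same livers, so fits with the pool of recipients as a block and with the pools summed are given beside the unpaired main fits. The methods mention batches of combined mice for the T cell receptor sequencing. For the figure that holds the liver RNA-Seq, the paper reports data pooled over 2 or more replicate experiments, without naming the replicate numbers. Neither the methods nor the labels tie the replicate numbers of the RNA-Seq libraries to batches, so genotypes were not paired in the main fit. In the main fits of genotype, subset and interaction, p-values measure the spread between pools of recipients, 2 a group. With the pool as a block that spread is removed, and p-values measure what remains between subsets within pools. The replicate number as a block removes what same-numbered libraries share. In the test of the replicate number, the difference between pools is itself the effect. All 10 genes were covered in every comparison (by value or range), plus up to 3 called genes of each list by lowest p. Members and lists were chosen with earlier results of these data known. Columns of per-sample values not used numbered 0. Scripts were tested on simulated data.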

Additional observations from a re-analysis of the deposited data

How the results depend on the processing

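Leaving out each library in turn gave 7 to 8 genes for the replicate comparison, Batf and Egr1 being those that missed the threshold. For STAT3ko PD-1ko against WT in CD4, the log2 fold change then ranged from -2.43 to -0.811 for Fos and from -3 to -0.53 for Fosb. It ranged from -3.01 to -0.854 for Fosl2 and from -1.96 to -0.565 for Jun. In CD8 the range against WT was -2.26 to -0.149 for Fos and -2.45 to -0.347 for Fosl2. Against STAT3ko, Fos ranged from -2.47 to -0.864 in CD4 and from -2.49 to -0.559 in CD8. In the replicate comparison the CD8 libraries alone gave 2 genes and summed pools gave 3. With the replicate number as a replicate block, which no label states (deviations of same-numbered libraries of different groups had r between 0.0601 and 0.651), STAT3ko PD-1ko against WT gave 7 genes in CD4 (Fos, Fosb, Fosl2, Jun, Junb, Jund and Egr1, all lower, among 3104 genes called) and 3 in CD8 (Fos, Fosb and Fosl2 lower), and against STAT3ko 5 in CD4 and 3 in CD8. Of all genes, 26%, 24.7%, 26% and 24.4% passed in the same order. STAT3ko against WT stayed at 0 with the block. Further fits were chosen after seeing the data, given in the order CD4 against WT, CD4 against STAT3ko, CD8 against WT and CD8 against STAT3ko. With the replicate block, 1 fit of 12 libraries gave 7, 5, 6 and 4 genes (against 29.8%, 30.1%, 28.7% and 28.7% of all genes). DESeq2 with the block gave 7, 5, 2 and 3 (against 22.8%, 23.1%, 22.7% and 22.4%). For CD8 against CD4, the replicate number as a replicate block was also added later. It gave 3, 3 and 1 genes in WT, STAT3ko and STAT3ko PD-1ko (against 16.3%, 15.5% and 7.61% of all genes). The pool as a replicate block gave 7 in each (against 24.3%, 24.9% and 14.4%) and 1 interaction (against 0.681%). Without a block, genes with at least 1 count gave 2 (CD4) and 1 (CD8) against WT (against 10.9% and 13.8% of all genes). They gave 1 against STAT3ko in CD4 (against 9.82%) and 1 for CD8 against CD4 in WT (against 7.88%). The 4 compared libraries alone gave 3 (CD4) and 2 (CD8) against WT (against 16.5% in each). DESeq2 gave 1 against WT in CD4 (against 18.1%), and limma on log2(RPKM + 1) gave 1 against WT in CD8 (against 16.8%). With 12 libraries in 1 fit, 1 passed against STAT3ko in CD4 (against 18.6%). Requiring 10 counts in every library removed Batf3 and gave 0 against STAT3ko in CD8 (against 17.6%). The cause of these differences was not tested, except where fewer genes or libraries entered.

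Signs of some log2 fold changes changed when 1 library was left out. The ranges were -1.86 to 0.269 for Junb in STAT3ko PD-1ko against STAT3ko CD4, and -2.92 to 0.494 for Fosb and -2.17 to 0.064 for Junb against WT in CD8. For CD8 against CD4 in WT they were -2.93 to 0.654 for Fosb, -2.05 to 0.544 for Junb, -6.48 to 2.7 for Atf3 and -0.955 to 0.0257 for Jund. In STAT3ko they were -2.29 to 1.08 for Fosb, -2.15 to 0.749 for Junb, -6.36 to 3.44 for Atf3 and -0.476 to 1.82 for Fosl2. In STAT3ko PD-1ko they were -1.83 to 0.12 for Fos and -1.27 to 0.402 for Jun, and for the interaction of Jun -0.104 to 1.57. Among genes and comparisons that passed under no setting, 147 of the alternative log2 fold changes had the opposite sign and 1067 the same. Among those that passed under at least 1 setting, 19 had the opposite sign and 716 stayed the same, and the remainder grew stronger or weaker. Depth limited Batf3 and the replicate 2 values of Atf3, which rest on at most 36 counts. RLE size factors and log2(RPKM + 0.1) changed none of the counts of genes by more than 1.5 times.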
